A study of Mus musculus and Homo sapiens with 6 samples.

Results

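The regions described are the open-chromatin peaks of mouse chromosome 4 in NMuMG cells, a line of normal mouse mammary gland epithelium. They were chosen by the chromosome column of the peak lists alone, and they number 6986 of 169749 peaks in 4 lists. Chromosome 4 itself was singled out with earlier results of these lists known, and its peak density, gene-end peaks and scores are the measures that the choice uses. They are therefore given as a description, without a test.

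The study asked how many cells an ATAC-seq protocol needs. Nuclei from 25000, 50000, 75000 and 100000 cells were treated with Tn5 transposase, which inserts sequencing adapters into accessible DNA, and the fragments were amplified with 8 PCR cycles. All libraries carry the genotype label NMuMG, a time of 0 h and a passage number below 10, and the cells were lysed in CSK buffer after growth in DMEM with 10% FBS. There is 1 library per cell number, nothing says whether they came from separate cultures, and 2 samples of a human line were not analysed here. Sets of 4 values are in the order 25000, 50000, 75000 and 100000 cells.

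An open region is a stretch of DNA where nucleosomes are displaced so that an enzyme can reach it. Such regions mark active promoters and enhancers, and promoters rich in CpG dinucleotides are open in most cell types. Mouse chromosome 4 holds broadly used genes as well as tandem arrays of genes that are active in few tissues, among them the major urinary protein, type I interferon and Skint genes.

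Sequences just before a few gene starts are shown first, as examples of promoters with and without a listed peak rather than as typical ones. The 5 stretches given here each hold the 250 bases before a RefSeq gene start on build GRCm38.p6, written 5′ to 3′ on the strand of the gene. Capitals mark matches to 8 short motifs, read on both strands and allowed to overlap. The GC box, known to bind Sp1 proteins, was spelled GGGCGG, and the box bound by the nuclear factor Y complex was spelled CCAAT. The core of sites for ETS proteins was spelled CCGGAA and the cyclic AMP response element, bound by proteins of the CREB family, TGACGTCA. The E-box, bound by helix-loop-helix proteins, was spelled CACGTG and the site for the AP-1 dimers of Jun and Fos proteins TGACTCA. The site for TEAD proteins, which work in the Hippo pathway, was spelled GGAATG and the box bound by the general initiation factor TFIID was spelled TATAAA. The first 3 lie at genes with a peak in all 4 libraries: Eno1, which encodes the glycolytic enzyme enolase (chr4:150236458-150236707, plus strand), Epb41, which encodes a membrane skeleton protein (chr4:132075314-132075563, minus strand), and Tgfbr1, the type I TGF-beta receptor gene (chr4:47352972-47353221, plus strand). The last 2 lie at genes with no listed peak at either end: Epha8, an ephrin receptor gene (chr4:136956817-136957066, minus strand), and Bmp8b, which encodes a bone morphogenetic protein (chr4:123104911-123105160, plus strand).
Eno1: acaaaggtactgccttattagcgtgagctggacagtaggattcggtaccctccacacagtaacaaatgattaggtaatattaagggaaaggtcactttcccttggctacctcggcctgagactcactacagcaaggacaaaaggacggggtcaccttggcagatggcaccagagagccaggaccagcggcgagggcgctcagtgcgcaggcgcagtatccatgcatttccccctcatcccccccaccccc
Epb41: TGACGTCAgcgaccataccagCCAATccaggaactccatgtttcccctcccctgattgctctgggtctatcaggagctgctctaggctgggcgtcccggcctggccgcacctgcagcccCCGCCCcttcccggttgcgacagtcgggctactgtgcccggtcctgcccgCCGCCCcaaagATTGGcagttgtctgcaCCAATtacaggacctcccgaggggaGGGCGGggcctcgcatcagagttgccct
Tgfbr1: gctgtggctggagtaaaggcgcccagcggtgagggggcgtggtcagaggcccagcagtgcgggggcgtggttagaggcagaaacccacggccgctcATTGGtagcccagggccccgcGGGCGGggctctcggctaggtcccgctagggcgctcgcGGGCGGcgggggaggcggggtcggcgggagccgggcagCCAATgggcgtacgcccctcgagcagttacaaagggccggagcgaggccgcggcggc
Epha8: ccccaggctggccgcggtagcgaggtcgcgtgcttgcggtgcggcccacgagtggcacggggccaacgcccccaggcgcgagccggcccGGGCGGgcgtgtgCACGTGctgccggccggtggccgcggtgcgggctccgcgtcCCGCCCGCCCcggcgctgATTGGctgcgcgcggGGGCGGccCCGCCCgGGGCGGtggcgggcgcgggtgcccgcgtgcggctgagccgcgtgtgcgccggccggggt
Bmp8b: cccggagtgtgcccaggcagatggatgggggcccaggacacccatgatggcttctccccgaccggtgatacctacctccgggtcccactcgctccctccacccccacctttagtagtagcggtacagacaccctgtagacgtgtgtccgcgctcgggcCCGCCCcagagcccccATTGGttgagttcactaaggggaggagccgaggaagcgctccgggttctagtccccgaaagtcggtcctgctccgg

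The promoters with a peak did not look alike in these letters. The Eno1 stretch held none of the 8 motifs at a GC content of 55.6% with 9 CpG dinucleotides, although its peak scored 65, 77, 56 and 60. The Epb41 stretch held 7 matches, including a cyclic AMP response element at its first base, and its peak scored 55, 69, 65 and 65. The Tgfbr1 stretch held 2 GC boxes and 2 CCAAT boxes at 74.8% GC, with scores of 46, 54, 61 and 41. Both promoters shown without a peak were rich in GC, unlike most of their class: the 740 chromosome 4 promoters without a peak had a median GC content of 53% and 6 CpG dinucleotides. Epha8 was the richest of the 5, with 84% GC, 46 CpG dinucleotides and 6 GC boxes, of which some overlap. Bmp8b had 65.2% GC, the same value as Epb41. A match in these letters is a description and not a binding site.

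Chromosome 4 had few peaks for its length and for its genes. Its lists held 1518, 1781, 1758 and 1929 peaks, or 9.71, 11.4, 11.2 and 12.3 per Mb, while the other 18 autosomes together had 15.9, 17.9, 16.9 and 18.5 per Mb. The ratio of the densities was 0.610 at 25000 cells (95% exact interval 0.579 to 0.642), 0.638 at 50000 (0.608 to 0.669), 0.665 at 75000 (0.634 to 0.698) and 0.666 at 100000 (0.636 to 0.697). These intervals, like all others here, are Clopper-Pearson intervals of the counting error alone, without any spread between cultures. Chromosome 4 was the second lowest of 19 autosomes in each library. Chromosome 14 was lower, at 7.31, 8.65, 8.21 and 9.02 per Mb, and the next autosome above, chromosome 12, had 12.5, 13.97, 13.4 and 14.6. The order of the 3 chromosomes was the same in the 4 libraries.

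The low density did not go with a low number of genes. Chromosome 4 had 8.32 protein-coding genes per Mb, above the median of 7.58 over the other autosomes and the 13th value from the lowest of 19. It had 1.17, 1.369, 1.35 and 1.48 peaks per coding gene against 1.90, 2.14, 2.02 and 2.22 on the other autosomes. Only chromosome 14 was lower at 25000 cells, and chromosomes 14 and 7 were lower in the other libraries, where chromosome 7 had 1.368, 1.31 and 1.45. The X chromosome, which is no autosome and is given for comparison, had 0.712, 0.917, 0.836 and 0.924 peaks per gene. The median peak width was 550 bp on each of the 19 autosomes in every list. A tied median does not show whether mean widths differed.

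**Figure D1:**
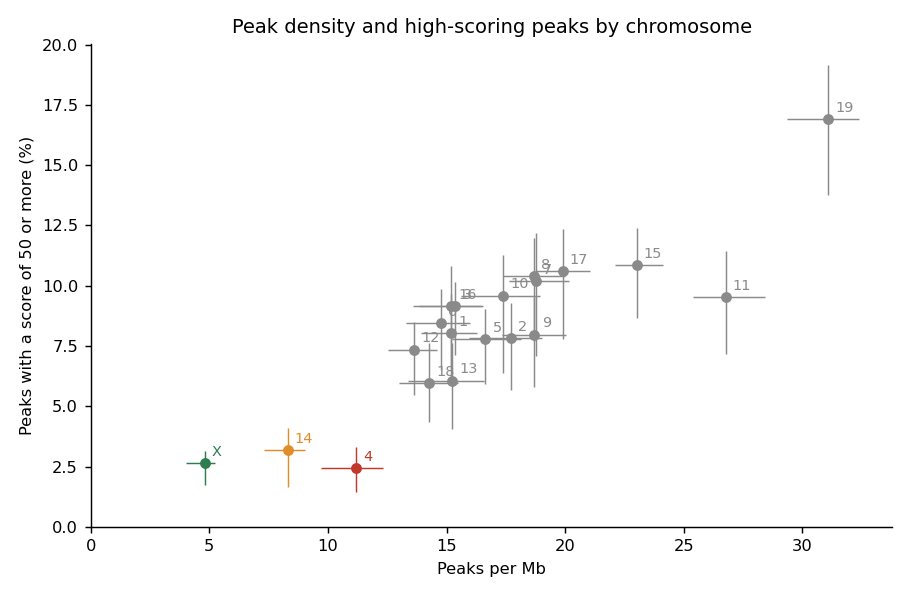
Peaks per Mb (x axis) and percent of peaks with a score of 50 or more (y axis) for the 19 autosomes and X; points are means of the 4 libraries and bars run from the lowest to the highest library. The means of chromosome 4 (red), chromosome 14 (orange) and X (green) lie below those of the other 17 autosomes on both axes.

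The shortfall was greatest among the strongest peaks. The authors gave each peak a whole-number score of at least 8, which ranks peaks within a list. What the score is computed from is not given in the sources used here. On chromosome 4, 22, 59, 40 and 51 peaks scored 50 or more, or 1.45% (0.910 to 2.19), 3.31% (2.53 to 4.25), 2.28% (1.63 to 3.09) and 2.64% (1.97 to 3.46) of its peaks. On the other autosomes the shares were 6.74%, 10.2%, 8.72% and 10.5%. Chromosome 14 had 1.64%, 3.71%, 3.32% and 4.09%. X was close to chromosome 4, with 1.74%, 3.16%, 2.85% and 2.80%.

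The density relative to the other autosomes fell with the score class. Among peaks scoring 8 or 9, chromosome 4 had 0.714, 0.684, 0.775 and 0.760 of the density of the other autosomes. Among those scoring 25 to 49 the ratio was 0.443, 0.548, 0.488 and 0.562, and at 50 or more it was 0.131, 0.206, 0.174 and 0.168. The ratio for scores of 10 to 14, at 0.731, 0.779, 0.812 and 0.829, was the highest of the 5 classes in each library. Weak peaks were thus fewer per Mb as well, but by a smaller factor than strong ones.

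**Figure D2:**
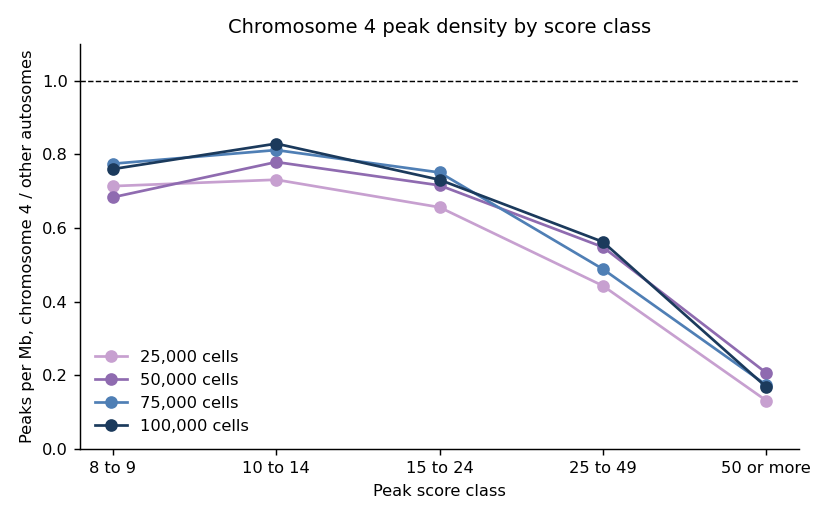
Peaks per Mb of chromosome 4 divided by that of the other 18 autosomes (y axis), for 5 classes of peak score (x axis), with 1 line per library and a dashed line at 1, where the densities would be equal. All points lie below 1, and the class of 50 or more is the lowest in each library, from 0.131 to 0.206.

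The upper end of the score distribution held few chromosome 4 peaks. None of the 100 highest-scoring autosomal peaks of any list lay on chromosome 4, which allows a share of up to 3.62%. Of the 1000 highest, 2, 2, 3 and 1 did, while chromosome 4 held 3.98%, 4.15%, 4.32% and 4.32% of all autosomal peaks. Chromosome 14 held 1, 0, 2 and 0 of the 100 highest and 5, 6, 5 and 3 of the 1000 highest. The highest chromosome 4 peak ranked 829, 852, 478 and 900 among autosomal peaks, with a score of 69, 87, 91 and 86. The highest scores of the other autosomes had medians of 164.5, 196.5, 177 and 181 over the 18. At 75000 cells chromosome 18 had a lower maximum than chromosome 4, of 88. The lower end differed less: the median score was 13, 14, 13 and 14 on chromosome 4, and the median over the other autosomes was 15, 16, 16 and 16.

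Where the peaks lay relative to genes differed from other autosomes in another direction. Gene-end peaks are those overlapping the 1 kb on either side of an annotated gene start or end. On chromosome 4, 40.5%, 38.9%, 39.7% and 38.5% of peaks were at gene ends, against 32.9%, 31.0%, 32.2% and 31.1% elsewhere. Chromosome 4 had the highest share of the 19 autosomes in each library, but others were close. Chromosome 11 had 38.5%, 37.1%, 38.5% and 37.0%, and chromosome 14 had 35.2%, 35.0%, 34.8% and 35.0%. X had 41.9%, 36.2%, 36.3% and 35.4%. Peaks between genes made up 20.6%, 22.1%, 20.99% and 21.8%, against 25.6%, 26.8%, 26.2% and 26.9%. Gene-end peaks thus made up a larger share of the peaks than elsewhere, but their scores were lower than those of gene-end peaks elsewhere, with medians of 15, 18, 16 and 18 against 20, 24, 22 and 24. Among intergenic peaks no peak of 313 reached 50 at 25000 cells (upper limit 1.17%), and at the larger cell numbers 0.761%, 0.813% and 0.713% did, against 3.64%, 5.39%, 4.72% and 5.27% elsewhere. Scores were thus lower in each location class.

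The strongest regions of the chromosome can be named. Peaks of the 4 lists were merged where they overlapped, which gave 2380 regions. The region with the highest mean score percentile among the 975 found in all 4 libraries lay inside Zdhhc18, a palmitoyltransferase gene, at chr4:133614101-133614900, 9946 bp from the nearer gene end, with scores of 66, 87, 63 and 66. The second lay at Vcp, which encodes an ATPase that extracts proteins for degradation, at chr4:43000151-43000950, with scores of 61, 85, 63 and 71. The third lay at Zbtb5, a zinc finger gene, at chr4:45011901-45013000, with 56, 62, 91 and 83. The peaks of both covered an annotated RefSeq promoter in each library. Of the 5 leading regions, 4 were at gene ends. The fourth was at Leprot, a gene of membrane trafficking next to the leptin receptor gene, at chr4:101646851-101648000 with 53, 65, 81 and 75. The fifth was at Alad, which encodes an enzyme of haem synthesis, at chr4:62519451-62520350 with 69, 60, 60 and 82. The order of the libraries differed between these regions, and none of the 4 libraries had the highest score throughout.

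Of the merged regions, 41.0% (38.98 to 43.0) were found in all 4 libraries and 27.0% in 1, against 46.7% and 26.1% on the other autosomes. Chromosome 14 was much like chromosome 4, with 41.5% (38.9 to 44.1) and 27.7%. Taken per list, 69.4%, 58.4%, 59.3% and 54.6% of chromosome 4 peaks overlapped a peak in all 3 other lists, against 72.7%, 64.1%, 68.0% and 61.7%. At equal score the shares were closer. Among peaks scoring 25 to 49, 99.6%, 97.6%, 98.2% and 97.2% were shared on chromosome 4 and 99.5%, 98.5%, 99.1% and 97.9% elsewhere. Every peak of 50 or more was found in all 4 libraries, on chromosome 4 and on the other autosomes alike. For scores of 10 to 14 the shares were 60.8%, 39.7%, 40.04% (35.9 to 44.3) and 34.7%, against 57.5%, 40.7%, 48.2% and 35.3% elsewhere.

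Regions missing only from the smallest library made up a slightly larger share here than on the other autosomes together. Of all regions, 159, or 6.68%, were found at each cell number except 25000, against 5.19% on the other autosomes together. This was the highest share among the 19 autosomes, but chromosomes 12 and 14 were close, with 6.23% and 6.16%. Regions missing only at 50000 cells made up 3.15%, also the highest of the 19, with chromosome 7 next at 3.04%. Those missing only at 75000 cells made up 3.07% against 3.69% elsewhere, the 18th of the 19 from the highest. The 100000-cell library alone lacked 2.18% against 1.89%.

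The peaks seen in 1 library had low scores. There were 95, 179, 172 and 225 of them, with a median score of 9 in each list. At 25000 cells the highest scored 15, at chr4:144955751-144956300 in Vps13d, a lipid transfer protein gene. At 50000 cells both leading peaks scored 19, at chr4:99959051-99959600 in Pgm1, a phosphoglucomutase gene, and between genes at chr4:132823851-132824400. At 75000 cells they scored 18, at chr4:109048151-109048700 in the peptidase gene Nrd1, and 16, at chr4:148820101-148820650 in the zinc finger gene Casz1. At 100000 cells they scored 19, between genes at chr4:63916151-63916750, and 17, at chr4:43442751-43443300 in the kinase gene Tesk1, 748 bp from its nearer boundary. None of these scores reached 20.

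Peaks were spread unevenly along the chromosome, which was divided into 31 full bins of 5 Mb and a short last bin. From its start to 105 Mb it held 5.47, 6.90, 6.96 and 7.38 peaks per Mb, and from 105 Mb to its end 18.4, 20.6, 20.0 and 22.5 per Mb. The second stretch also held more genes, 764 in 51.4 Mb against 537 in 105 Mb. Per gene the stretches differed less, with 1.07, 1.35, 1.36 and 1.44 peaks in the first and 1.24, 1.38, 1.34 and 1.51 in the second. Strong peaks had the opposite tilt: 1.92%, 4.01%, 2.87% and 3.35% of peaks scored 50 or more in the first stretch and 1.17%, 2.84%, 1.85% and 2.166% in the second. The boundary at 105 Mb was chosen after the bins were seen.

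The mean count over the libraries was below the autosomal median of 72 in 20 of the 31 full bins, and the median chromosome 4 bin held 39.75 peaks. The fullest bin, from 135 to 140 Mb, held 148, 156, 151 and 173 peaks with 84 coding genes, and the next, from 130 to 135 Mb, held 135, 159, 150 and 173 with 96 genes. The third, from 115 to 120 Mb, held 104, 119, 104 and 124 with 114 genes. These bins reached the 90.4, 89.3 and 75.7 percentile of autosomal bins, so parts of the chromosome were among the fuller bins of the genome. The emptiest bin, from 75 to 80 Mb, held 4, 6, 7 and 7 peaks with 2 genes, and the one from 65 to 70 Mb held 9, 9, 10 and 10 with 5 genes. The bins from 35 to 40 Mb and from 110 to 115 Mb both averaged 10.25 peaks, with 5 and 20 coding genes.

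Bins with like numbers of genes were then set side by side. With 10 to 19 genes, 7 chromosome 4 bins had a median of 17.5 peaks and 86 bins elsewhere one of 48. With 40 to 79 genes, the medians were 77.25 over 7 bins and 109.25 over 111 bins. With 80 genes or more, they were 112.6 over 6 bins and 172.1 over 60 bins. Of the 31 bins, 30 were below the median of the other autosomes in their class, the exception being 1 of 7 bins with 20 to 39 genes. Scores followed: the mean percentile of the median gene-end peak was below 66.0, the median over bins of the other autosomes, in 28 of 31 bins, and ran from 34.2 to 82.5. The lower values were therefore found along the length of the chromosome rather than in a few bins.

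**Figure D3:**
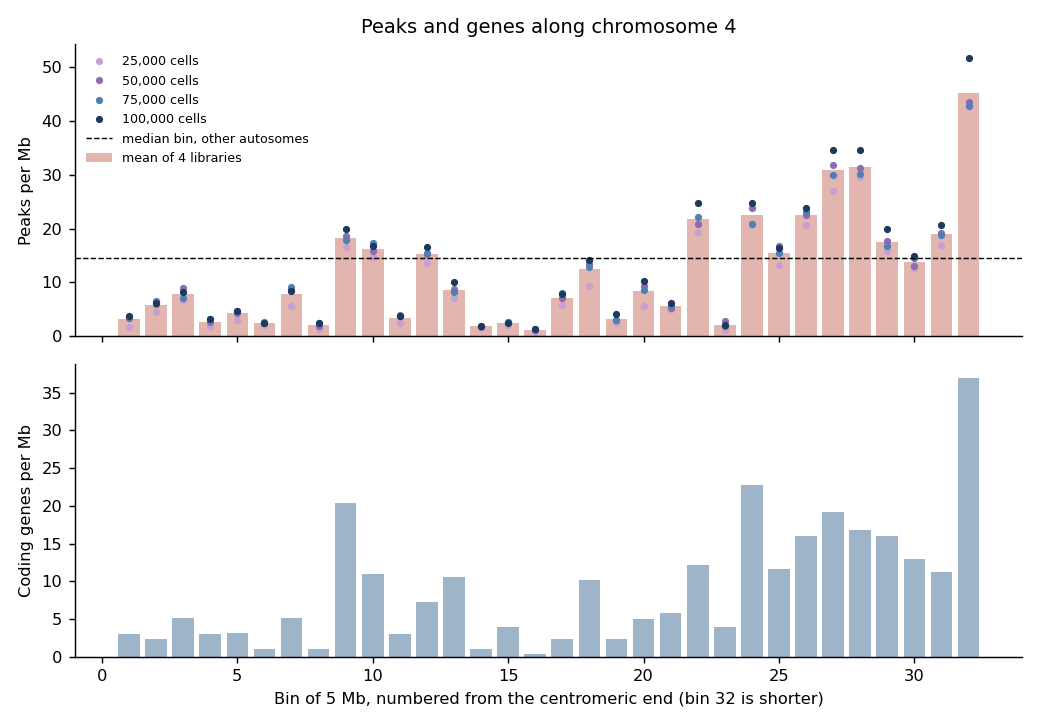
Upper panel: peaks per Mb in bins of 5 Mb numbered from the start of chromosome 4, as the mean of the 4 libraries (bars) and each library (points), with the median bin of the other autosomes as a dashed line. Lower panel: protein-coding genes per Mb in the same bins; the fullest full bins, 27 and 28, lie in the gene-rich last part, and bin 16 is the emptiest.

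The genes with the highest gene-end scores were taken from each of the 3 fullest bins. In the fullest bin Ddost, which encodes a subunit of the enzyme complex for N-glycosylation, scored 40, 47, 43 and 55. The next genes there, Nipal3 and Stpg1, share 1 peak with 34, 56, 54 and 43 that lies nearer to Stpg1, and Aldh4a1, a gene of proline breakdown, had 30, 46, 34 and 32. In the bin from 130 to 135 Mb, after Epb41, Fam76a scored 35, 65, 50 and 50, the centrosomal gene Cep85 40, 62, 65 and 38, and Tent5b 39, 43, 52 and 44. In the bin from 115 to 120 Mb, Mmachc, a gene of vitamin B12 metabolism, and its neighbour Ccdc163 share a peak with 44, 42, 56 and 54. Peaks of 50 or more were absent from 17, 10, 13 and 8 of the 32 bins, the short last one included, and the most in 1 bin were 4, 9, 6 and 6.

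Of the 15 longest stretches without a listed peak in any library, 10 held 3 coding genes or fewer. From 37170301 to 39923050 (2.75 Mb) and from 78236301 to 80873150 (2.64 Mb) each stretch held 1 coding gene, the latter Tyrp1, a gene of pigment synthesis. A stretch of 2.56 Mb from 145287051 held 18 coding genes, mostly zinc finger genes such as Zfp600 and Zfp534. The stretch from 111908201 to 114357200 held the 11 Skint genes, which encode immunoglobulin-like proteins of skin and thymus. The one from 59928751 to 62094200 held 21 of the 22 major urinary protein genes. A stretch of 2.46 Mb from 89528351 held Dmrta1, Zfp352 and the neuronal gene Elavl2.

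A gene-end peak was present in all 4 libraries at 492 of the 1301 protein-coding genes of chromosome 4, or 37.8% (35.2 to 40.5), where 45.6% of the 20556 such genes of all autosomes had one. Because the chromosome was chosen with this measure known, nothing further is read from it. Chromosome 7 (37.2%) and chromosome 14 (30.2%) were lower. Per library, 42.4%, 47.0%, 46.6% and 47.0% of chromosome 4 genes had a gene-end peak, against 49.05%, 50.9%, 50.4% and 51.6% elsewhere. Partial detection was more frequent on chromosome 4. A peak in 3 libraries was found for 91 genes, or 6.99% (5.67 to 8.52), against 3.37% elsewhere, and the 25000-cell library was the one without it for 50 of the 91, or 54.9% (44.2 to 65.4), where the share elsewhere was 50.2%. No listed gene-end peak was found for 626 genes, or 48.1%, against 45.3%, so the genes without any peak differed less in share than those with a peak in all 4.

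At genes with a peak in all 4 libraries the scores were lower than elsewhere. Their median was 19, 25, 22 and 25.5 over the 492 genes, against 28, 37, 33 and 38 over 8876 genes of the other autosomes. The lower quartile was 13, 17, 15 and 18 against 18, 23, 21 and 25, and the 90th percentile 41, 50, 45.9 and 48 against 62, 81, 73 and 81. The whole range was thus shifted and not the top alone. The 256 such genes of chromosome 14 had medians of 19, 24, 23 and 27.

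Promoters of like base composition also had fewer and lower-scoring peaks than elsewhere. RefSeq promoters of 300 bases, from 250 before to 50 after the gene start, were available for 1067 of the 1301 genes (82.0%) in 1367 versions, and 577 of these were CpG-rich, with at least 55% GC and an observed to expected CpG ratio of at least 0.65. That share, 42.2%, was above the 39.01% of the other autosomes with promoters in the table. Of the CpG-rich promoters, 62.6% (58.5 to 66.5), 67.8% (63.8 to 71.6), 69.2% (65.2 to 72.9) and 69.5% (65.6 to 73.2) were covered by a peak, against 76.9%, 79.6%, 79.2% and 80.7%. The median scores of those peaks were 18, 23, 21 and 23 against 29, 37, 34 and 39. A peak in all 4 libraries covered 56.7% against 73.6%. Among 18 autosomes, chromosome 4 was lowest or second lowest in each of these shares and medians, beside chromosome 14. Several promoters may belong to 1 gene, so they are not independent.

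**Figure D4:**
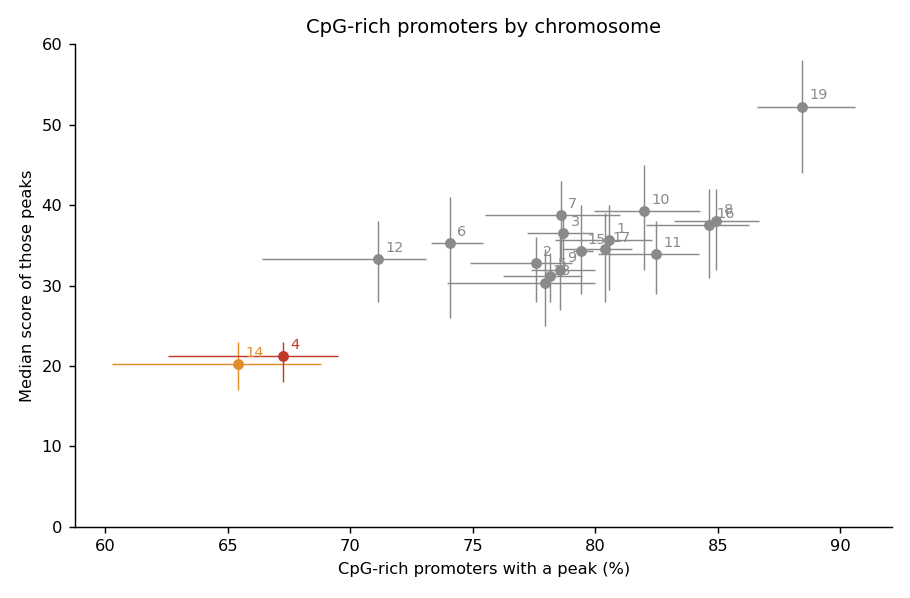
Percent of CpG-rich promoters covered by a peak (x axis, not starting at 0) and median score of the covering peaks (y axis) for 18 autosomes; points are means of the 4 libraries and bars run from the lowest to the highest library. Chromosomes 4 (red) and 14 (orange) have the lowest median scores, from 17 to 23.

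Promoters with and without a peak differed in sequence content, on chromosome 4 and elsewhere. Promoters with a peak in all 4 libraries had a median GC content of 63.3% and 24 CpG dinucleotides, and those with none had 53% and 6. A GC box stood in 77.7% of the 449 promoters with a peak in all 4 libraries and in 35.3% of the 740 with none (other autosomes 71.6% and 24.4%, all autosomal promoters 47.0%). The ETS core stood in 38.3% and 7.97% (other autosomes 33.8% and 6.66%, all 19.1%), and the cyclic AMP response element in 3.79% and 0.541% (3.96% and 0.992%, all 2.30%). The TATA box was less frequent in promoters with a peak, 5.35% against 13.8% (5.23% and 19.9%, all 12.7%). For AP-1 the shares were close together on chromosome 4, with 4.01% and 4.32%, and less so on the other autosomes (3.51% and 5.48%, all 4.70%). The E-box stood in 10.0% and 5% (all 7.89%), the CCAAT box in 47.2% and 37.3% (all 38.1%) and the TEAD site in 11.6% and 15% (all 13.4%). The GC box and the ETS core are made mostly of G and C, the composition that also defines CpG-rich promoters.

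Gene lists show which kinds of genes carried the peaks. Together the lists hold 214 genes of chromosome 4, with gene-end peaks in all 4 libraries at 94, in 1 to 3 libraries at 30 and in none at 90. That is 43.9%, between the 37.8% of all coding genes of chromosome 4 and the 45.6% of all autosomes. The share in all 4 libraries ran from 75% for TGF-beta, BMP and Wnt signalling through 65.4% for metabolism to 17.6% for extracellular matrix and 5.88% for neuronal markers. With only the peaks from the median score of a list upward, 52 of the 214 genes had gene-end peaks in all 4 libraries. The lists are short and were not tested against each other. A gene whose window holds the peak of a neighbour is counted too, and this is stated for the genes named.

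Components of TGF-beta, BMP and Wnt signalling, which control growth and the change from an epithelial to a mesenchymal state, had a peak in all 4 libraries at 9 of 12 genes and in none at 3. Tgfbr1, at chr4:47353222-47414926, had the highest values of the list, given above with its promoter. Ctnnbip1, which encodes an inhibitor of beta-catenin, scored 36, 41, 47 and 40, and Ski, a repressor of SMAD signalling, 29, 30, 40 and 39. The inhibitor of differentiation gene Id3 scored 17, 35, 24 and 21. The ligand genes Bmp8b and Gdf6 had no listed gene-end peak, and Nbl1, a BMP antagonist gene, had none at its ends but peaks of 12, 11 and 12 inside the gene at 25000, 75000 and 100000 cells.

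Among 14 genes of receptor tyrosine kinases and cytokine signalling, 5 (35.7%) had a peak in all 4 libraries and 9 in none, a share near the 37.8% of all coding genes of the chromosome. Epha7, an ephrin receptor gene, scored 38, 43, 51 and 55, Pik3r3, a regulatory subunit gene of PI3 kinase, 48, 33, 41 and 31, the kinase gene Jak1 28, 42, 39 and 32, and Errfi1, which encodes an inhibitor of the EGF receptor, 25, 35, 22 and 27. The ephrin receptor genes were divided: Epha7 and Epha2, which is described with the epithelial markers, had peaks in all 4 libraries, Epha8 and Epha10 had none, and Ephb2 had none at its ends but 10, 14, 17 and 13 inside the gene. The other 3 genes with peaks in all 4 libraries encode intracellular proteins.

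Of 28 transcription factor genes, 6 (21.4%) had gene-end peaks in all 4 libraries, 4 in some and 18 (64.3%) in none, where 37.8% and 48.1% of all coding genes of the chromosome did. Counted anywhere in the gene or within 1 kb of it, 11 (39.3%) had a peak in all 4 libraries and 11 in none. Over all coding genes of the chromosome, 47.5% had such a peak in all 4 libraries and 37.4% in none. Jun, an AP-1 subunit gene at chr4:95049036-95052222, scored 24, 45, 37 and 56, and Klf4, at chr4:55527137-55532475, scored 16, 23, 23 and 17. Foxo6 scored 29, 45, 33 and 44, and the peak of 39, 47, 39 and 61 in the window of Plag1 lies nearer to its neighbour Chchd7. Nfia had none at its ends but 28, 26, 27 and 33 inside the gene, while Runx3 and Runx1t1 had none at all. Mycl had peaks of 8, 8 and 9 in the first 3 libraries, and those of Hes3 and Casz1, present at 50000 and 100000 cells, scored 8 to 11. These scores lie close to the lowest value listed.

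Of 20 genes of the cell cycle and genome maintenance, 19 had a gene-end peak in at least 1 library and 11 in all 4. Stil, needed for centriole duplication, scored 50, 51, 36 and 49, the deubiquitinase gene Usp1 27, 55, 49 and 49, and Cdc20, an activator of the anaphase-promoting complex, 33, 48, 32 and 26. The Mutyh window held a peak of 46, 42, 26 and 36 that lies nearer to Toe1. The neighbouring inhibitor genes Cdkn2a and Cdkn2b differed: Cdkn2a had only a peak of 8 at 75000 cells, and Cdkn2b, named after its values were seen, had 24, 40, 26 and 29. The kinase gene Plk3 had 26, 23 and 14 at the 3 larger cell numbers and none at 25000, and Kif2c had 11 and 9 at 50000 and 100000 cells. Orc1 had none at its outer ends but 25, 26, 30 and 32 inside the gene, over an annotated RefSeq promoter in each library.

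Chromatin regulators had a peak in all 4 libraries at 9 of 15 genes and in some at 4. The histone demethylase gene Kdm4a scored 56, 62, 30 and 48, the histone chaperone gene Rbbp4 39, 42, 49 and 30, Phf13 31, 25, 36 and 33, and the deacetylase gene Hdac1 23, 49, 15 and 39. Kdm1a lacked a peak at 25000 cells and scored 9, 14 and 16 at its ends in the other libraries. Rere had no gene-end peak at 25000 cells and 24, 11 and 20 in the other libraries, but 28, 48, 36 and 55 in or near the gene. Prdm2 had 1 gene-end peak, of 9 at 75000 cells, but 32, 40, 41 and 34 inside the gene. Kdm4c and Chd5 had no gene-end peak but 17 to 30 and 11 to 18 inside the gene, those of Kdm4c over an annotated RefSeq promoter in each library.

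Genes of RNA processing and translation had a peak in all 4 libraries at 15 of 24, in some at 5 and in none at 4. Srm, a polyamine synthesis gene, scored 23, 26, 32 and 47, the nucleolar gene Gnl2 31, 23, 25 and 43, and the ribosomal protein gene Rps20 28, 28, 24 and 32, while the peak of 40, 47, 45 and 33 in the window of Snrnp40 lies nearer to Zcchc17. Rpl22, another ribosomal protein gene, had a gene-end peak in 1 library, with 21 at 75000 cells. Each library had a peak of 21 to 30 in Rpl22 or within 1 kb of it, over an annotated RefSeq promoter. Ybx1, which encodes an RNA-binding cold shock protein, had none in its end windows but 35, 53, 32 and 40 inside the gene, and Eif4g3 and Ago3 had 12 to 17 and 17 to 27 there. Peaks covered an annotated RefSeq promoter in 4 libraries for Ybx1 and Ago3 and in 3 for Eif4g3. The Khdrbs1 window held peaks of 9, 8 and 10 at the larger cell numbers, all nearer to Tmem39b, and the gene had 22, 27, 27 and 31 inside it.

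Metabolic and redox genes had a peak in all 4 libraries at 17 of 26, in some at 5 and in none at 4. After Eno1, high values were found at H6pd, an enzyme gene of the pentose phosphate pathway in the endoplasmic reticulum, with 55, 50, 48 and 59, and at the thioredoxin gene Txn1 with 43, 64, 36 and 47. The fructose transporter gene Slc2a5 had none at its ends but 22 to 31 inside the gene. Ugcg had no gene-end peak at 50000 cells, where a peak of 19 lay inside the gene. At its ends Alpl had 11 at 100000 cells alone, with 10, 15, 8 and 13 in or near the gene, and Ppt1 had 11 and 10 at 25000 and 50000 cells.

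The list of cytoskeleton and cell junction genes was divided without intermediates, with 13 of 19 in all 4 libraries and 6 in none. Epb41 led it, followed by Prkcz, an atypical protein kinase C gene of cell polarity, with 58, 54, 41 and 54, Cap1, an actin-binding protein gene, with 30, 46, 56 and 42, and the channel gene Clic4 with 34, 33, 18 and 28. Macf1, a linker of actin and microtubules, and Espn, an actin-bundling gene, had peaks only inside the gene, of 29 to 35 and 17 to 28. Kazn had 11 and 12 inside the gene at 50000 and 75000 cells.

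The epithelial label was checked with epithelial marker genes of the chromosome. Sfn, an epithelial 14-3-3 gene, had gene-end peaks of 21, 27, 13 and 29, and Epha2, an ephrin receptor gene of epithelia, 14, 15, 16 and 12. The connexin gene Gjb5 had 14, 32, 36 and 21. Grhl3, a transcription factor gene of surface epithelium, had no gene-end peak and 1 peak of 8 inside the gene at 100000 cells. So 3 of these 4 genes had peaks in all 4 libraries. Esrp1, an epithelial splicing factor gene named after its values were seen, had no listed peak at its ends or inside the gene.

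Extracellular matrix genes had a peak in all 4 libraries at 3 of 17 and in none at 13. Agrn, which encodes the basement membrane proteoglycan agrin, scored 30, 38, 44 and 39, the collagen-modifying enzyme gene Plod1 9, 28, 12 and 22, and Mmp23 9, 18, 9 and 21. Hspg2, the perlecan gene, had end peaks of 16, 12 and 19 at the 3 larger cell numbers and 27 to 38 in the gene or within 1 kb of it in each library. Tnc had a peak of 11 inside the gene at 50000 cells, Col8a2 one of 13 at 100000 cells, and Sdc3 had none. Counted anywhere in the gene or within 1 kb of it, 7 of the 17 (41.2%) had a peak in all 4 libraries. The share over all coding genes of the chromosome was 47.5%.

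Markers of other cell types were counted likewise. Gene-end peaks were found at 5 of 22 genes of blood and immune cells in all 4 libraries, at 2 in some and at 15 in none. Those 5 were Tlr4, a receptor of bacterial lipopolysaccharide, with 17, 17, 26 and 32, the interleukin-22 receptor gene Il22ra1, which epithelia also use, with 10, 22, 14 and 17, the kinase gene Lyn with 8, 15, 22 and 18, Cnr2, whose peaks of 11, 9, 15 and 26 all lie nearer to Fuca1, and the TNF receptor gene Tnfrsf1b, with scores of 8 to 15. Laptm5 and Fgr had no listed peak, and Lck had 1 peak of 8 inside the gene at 50000 cells. In the gene or within 1 kb of it, 7 of the 22 (31.8%) had a peak in all 4 libraries and 11 in none. Over all coding genes of the chromosome these shares were 47.5% and 37.4%. Among the 7 was Pik3cd, named after its values were seen, with 12, 8, 14 and 9 over an annotated promoter. Of 17 neuronal genes, Camk2n1 alone had gene-end peaks in all 4 libraries, with 17, 22, 16 and 19. Elavl2, Elavl4 and Penk had no listed peak. Counted anywhere in the gene or within 1 kb of it, 5 of the 17 (29.4%) had a peak in all 4 libraries. Among them was Lingo2, with 11, 23, 19 and 29 and an end peak of 10 at 75000 cells. Another, Cnr1, named after its values were seen, had 11, 21, 20 and 30 over an annotated promoter.

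Tandem gene families were nearly free of peaks. None of the 22 major urinary protein genes, 17 type I interferon genes, 11 Skint genes and 24 olfactory receptor genes had a gene-end peak in any library. Of 10 cytochrome P450 genes of the Cyp4 family, Cyp4b1 had 1 peak of 9 at 25000 cells. Of 24 Pramel genes, which are used in germ cells and early embryos, Pramel12 had peaks of 13, 19, 20 and 32, and it borders a stretch of 33 coding genes without a peak. The 27 zinc finger Zfp genes were mixed, with 5 in all 4 libraries, 3 in some and 19 in none, and Zfp691 had the highest scores, 33, 46, 38 and 43. Such arrays include near-identical copies, so their counts are uncertain. How reads with several possible positions were treated is not given in the sources used here, and their part in these counts was not tested. Without these families except the Zfp genes, the mean ratio of chromosome 4 to the other autosomes in the share of genes with a gene-end peak was 0.929, and with them 0.905.

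**Figure D5:**
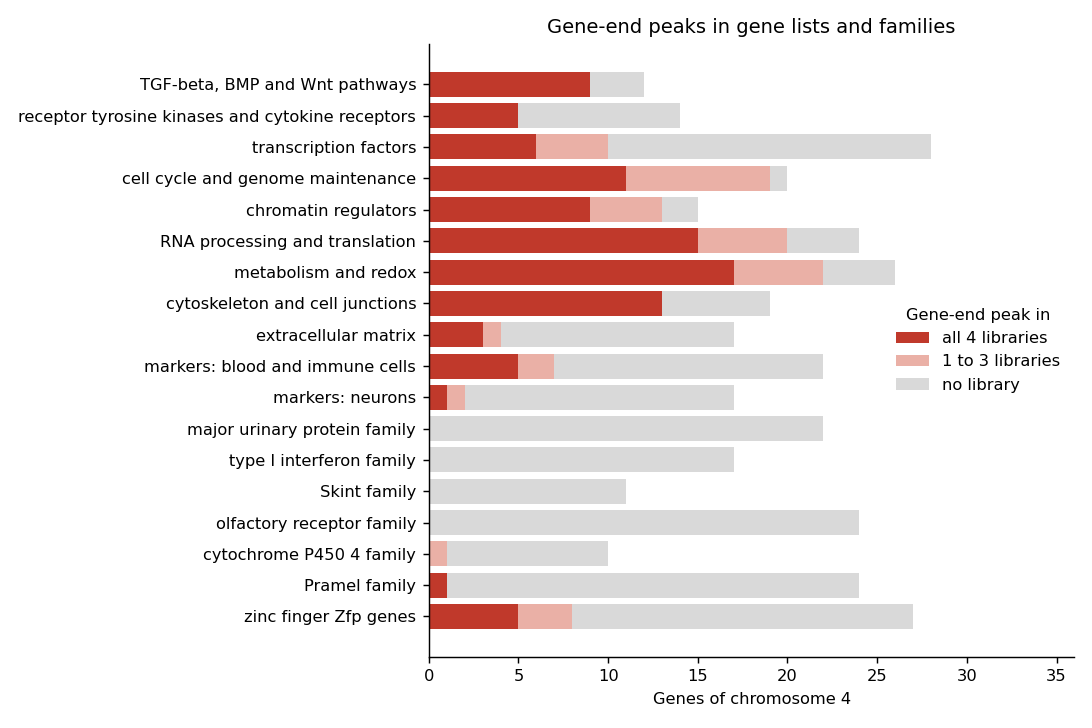
Number of chromosome 4 genes (x axis) in each gene list or family with a gene-end peak in all 4 libraries (red), in 1 to 3 (light red) or in none (grey). Metabolism and redox (17 of 26) and RNA processing and translation (15 of 24) have the largest red bars, and 5 of the 7 families at the bottom have none.

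The number of copies of chromosome 4 in these cells was not measured, and a lower number of copies and less open chromatin per copy cannot be told apart in peak lists. Depth is unknown, since no read counts accompany the lists. A region without a listed peak may have signal below the lowest score of 8.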

How the data were processed

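ATAC-seq peak lists of 4 NMuMG libraries were used. Each holds positions on mm10 and a whole-number score, which the authors deposited without naming what it is computed from. The submitters' processing notes name Bowtie 0.12.8, Picard 1.107, bedtools 2.17.0, cutadapt and SAMtools, with builds mm10 and hg19. Their settings, and the peak caller, were not given in the sources used here. Depth is unknown. Peaks with chr4 in the chromosome column were counted per Mb (length to the last annotated or listed base), per protein-coding gene and in 5 Mb bins, and compared with the other 18 autosomes. Genes came from a RefSeq table of GRCm38.p6, which shares mm10 positions. Those placed below 3 Mb (69 on chromosome 4, 27 of them coding) were left out, since no autosomal peak starts before 2999851 and such entries carry scaffold positions. Sharing needed an overlap of 1 bp. With 1 library per cell number no test was made. Intervals are 95% Clopper-Pearson.

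Named genes were, per list, up to 4 with gene-end peaks in every library, taken by mean score percentile, 3 with none and 3 with some, the 5 highest regions, the 2 highest peaks of each single library, and up to 4 genes of the 3 fullest bins. The emptiest bins were taken likewise. Some items these choices select are left unreported. The members and lists were chosen with earlier results of these data known. Alternatives were only the peaks from the median score of a list upward, merged peaks, equal numbers of peaks, other windows, gene sets and bin sizes, other comparison chromosomes and leaving out each library. Overlap and gene-end assignment were tested on simulated data. Python 3.11.15, pandas 2.3.3, numpy 2.4.6, scipy 1.17.1 and matplotlib 3.10.9 were used.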

Additional observations from a re-analysis of the deposited data

How the results depend on the processing

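Values are means over the libraries of the chromosome 4 to other autosomes ratio, except the percent of bins below the autosomal median and the count of list genes. Of 59 alternatives, 53 stayed within the counting interval of the value reported (for the gene lists, within 1.5 times its count) and no ratio crossed 1. With only the peaks from the median score of a list upward, the ratio fell from 0.645 to 0.538 for peaks per Mb, from 0.648 to 0.541 for peaks per coding gene, from 0.905 to 0.847 for the share of peaks found in all 3 other libraries and from 0.905 to 0.745 for the share of genes with a gene-end peak, and list genes with a gene-end peak in all 4 libraries fell from 94 to 52. With a limit of 25 in place of 50, chosen after seeing the data, the ratio of the high-score share was 0.633 in place of 0.263. Leaving out each library gave 0.638 to 0.656 for peaks per Mb, 0.641 to 0.659 per gene, 0.243 to 0.279 for the high-score share and 0.899 to 0.919 for the gene share. Restricting genes to CpG-rich promoters and keeping genes below 3 Mb, both also chosen after seeing the data, gave gene-share ratios of 0.852 and 0.890. No paired analysis was possible because each cell number has 1 library. Without read counts, depth limits cannot be stated, and differences near the lowest score of 8 are not resolved.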
